A study of Homo sapiens with 2 samples.

Results

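PCA3, PCAT1, PCGEM1, PVT1, PRNCR1 and PART1 are long noncoding RNAs linked to prostate cancer, chosen here by name from what is known of the disease. Of these 6 genes, 5 carried a row among the 49672 symbols of the deposited tables, and PVT1 was read from a row joined with the microRNA gene MIR1204. No row bore the symbol PRNCR1, and that gene is not analysed here. The samples were C4-2B cells, a castration-resistant subline of LNCaP that the labels call androgen-independent and bone-metastatic. They received DMSO as vehicle or 2.5 µM MA4-022-1, which the labels describe as a dual inhibitor of BET proteins and kinases. How long the cells were exposed is not stated in the labels. Each group held 1 library of total RNA depleted of ribosomal RNA. No difference below therefore has a replicate check, no p-value is given, and each interval covers counting error only.

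Long noncoding RNAs are transcripts that are not translated, and many act at the chromatin near their own gene or as scaffolds for proteins. PCA3 is made in an intron of PRUNE2, from the opposite strand, and is measured in urine as a marker of prostate cancer. PCAT1 and PRNCR1 lie in the gene-poor stretch before the oncogene MYC, and PVT1 follows it. PCGEM1 and PART1 were first described as prostate transcripts that respond to androgen. BET proteins bind acetylated histones and help RNA polymerase II to elongate, and MYC is a common target of their inhibitors.

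RefSeq promoters on GRCh38.p14, with 250 bases before and 50 after the start, were matched for 3 of the 6 members. They are shown because 2 of them, those of PCA3 and PART1, belong to genes that were lower with MA4-022-1, while the remaining promoter belongs to a gene listed at 0. All are on the plus strand and read 5′ to 3′. Capitals mark a match to 1 of the motifs searched on both strands.
PCA3, chr9:76764186-76764485: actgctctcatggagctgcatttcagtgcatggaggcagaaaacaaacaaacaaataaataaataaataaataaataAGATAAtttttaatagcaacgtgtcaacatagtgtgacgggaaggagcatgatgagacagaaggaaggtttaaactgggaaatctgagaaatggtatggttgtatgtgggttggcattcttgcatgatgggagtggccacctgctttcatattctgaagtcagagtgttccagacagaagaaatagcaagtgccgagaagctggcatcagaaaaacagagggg
PART1, chr5:60487682-60487981: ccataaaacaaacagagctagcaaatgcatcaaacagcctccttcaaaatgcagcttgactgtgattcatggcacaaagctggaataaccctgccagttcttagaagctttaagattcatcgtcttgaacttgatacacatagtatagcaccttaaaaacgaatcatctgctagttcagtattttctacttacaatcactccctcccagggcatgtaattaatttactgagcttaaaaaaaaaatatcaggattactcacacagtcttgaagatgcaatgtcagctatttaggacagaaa
PCGEM1, chr2:192749595-192749894: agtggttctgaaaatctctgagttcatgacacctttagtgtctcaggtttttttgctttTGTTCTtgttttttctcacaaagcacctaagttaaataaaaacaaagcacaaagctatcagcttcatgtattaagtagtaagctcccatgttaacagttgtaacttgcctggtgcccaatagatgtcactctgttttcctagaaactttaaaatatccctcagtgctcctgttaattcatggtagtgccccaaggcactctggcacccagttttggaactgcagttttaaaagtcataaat

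These promoters were poor in G and C. The share of G and C was 40.7% for PCA3, 37.3% for PART1 and 38.0% for PCGEM1, against a median of 58.7% over 34796 promoters of the same length. Of all promoters, 12.4% had a lower share than PCA3, 7.10% a lower one than PART1 and 8.16% a lower one than PCGEM1. The GATA motif AGATAA stood once in the PCA3 promoter, starting at base 78 of the window, and 10.4% of all promoters held it. The motif AGAACA, a core shared by steroid receptors, stood once in the PCGEM1 promoter, as TGTTCT from base 60, and 14.8% of all promoters held it. The PART1 window held none of the motifs searched. The other motifs searched were the forkhead motif TGTTTAC, held by 3.42% of all promoters, the E-box CACGTG, held by 7.20%, TATAAA, held by 11.6%, and the HOXB13 motif TTTTATNGG, held by 0.879%. None of these letters was in the 3 windows, which says nothing of the factors themselves.

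Levels are RPKM, reads per kilobase of transcript scaled to the size of the library, so they can be set side by side between genes. Rows of short microRNA genes are an exception, and the CD68 row below may be another. In the vehicle library PVT1 stood highest at 95.1 RPKM, above 90.5% of expressed genes, and the sum of the PCA3 rows followed at 18.8 RPKM, above 63.8%. PCAT1 stood at 5.25 RPKM and PART1 at 4.24 RPKM, above 37.3% and 33.5% of expressed genes. In the MA4-022-1 library the order was PVT1 at 65.5 RPKM, PCAT1 at 1.18, PART1 at 0.845 and PCA3 at 0.540 RPKM. The place of PCA3 in the vehicle library rests on rows listed at 0 with MA4-022-1, and its row above 0 in both libraries, at 0.683 against 0.540 RPKM, was the lowest of the 4 in each. PCGEM1 was listed at 0 in both libraries, and no fold is given for it.

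Expressed genes were those that reached 1 RPKM in either library. Each difference is the log2 of (RPKM + 1) with MA4-022-1 over (RPKM + 1) with vehicle, a scale that understates the change of low genes, and a gene was called past 2-fold. Of the 4 expressed members, 3 were at least 2-fold lower with MA4-022-1, and PVT1 lay within 2-fold. Over rows above 0 in both libraries 2 were lower, PCAT1 and PART1, and 1 lay within 2-fold, PVT1. PCA3 then fell under 1 RPKM and was not called. The median log2 ratio of the 4 was -1.51. Among all 15786 expressed genes, 9.95% passed 2-fold downwards and 8.36% upwards, with a median of -0.02. Among 2035 expressed genes that GENCODE types as long noncoding, 10.7% were lower and 7.71% higher, with a median of -0.00. In bulk RNA, fewer cells that make a transcript and less of it per cell cannot be told apart.

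**Figure D1:**
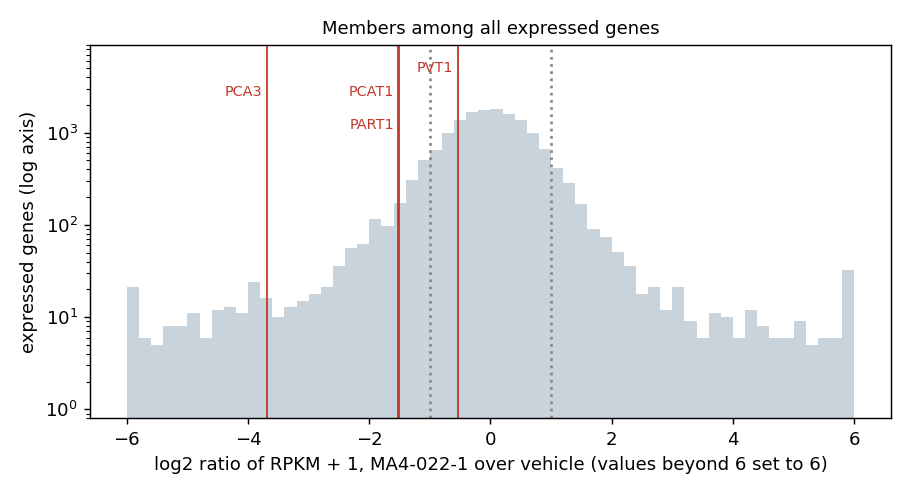
Histogram of the log2 ratio of RPKM + 1, MA4-022-1 over vehicle, for the 15786 expressed genes, with the number of genes on a log axis and 2-fold marked by dotted lines. The lines for PCA3 at -3.68, PCAT1 at -1.52 and PART1 at -1.51 fall beyond the lower dotted line, and that for PVT1 at -0.53 falls inside it.

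PCA3 had the lowest ratio of the members, -3.68 for the sum of its 3 rows, and 0.855% of expressed genes had a lower one. The rows, numbered in the order deposited, did not move alike. Row 1 stood at 0.683 RPKM with vehicle and 0.540 RPKM with MA4-022-1, a log2 ratio of -0.13. Row 2 stood at 7.15 RPKM and row 3 at 10.9 RPKM with vehicle, and both were listed at 0 with MA4-022-1. Those 2 rows held 38.1% and 58.3% of the PCA3 sum in the vehicle library, so the call rests on them. Over rows above 0 in both libraries only row 1 is left, which is under 1 RPKM, so the gene then counts as not expressed and has no call.

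For PCA3 row 1 the RPKM with MA4-022-1 was 0.790 times that of vehicle, with a 95% exact binomial interval from 0.448 to 1.34, so no difference was detectable there at this depth. The interval assumes the median annotated transcript of 2374 nt, on which the value stood for about 40 reads against 23. On the same length rows 2 and 3 stood for about 422 and 646 reads in the vehicle library, while 3 reads would have given 0.0693 RPKM in the MA4-022-1 library. An exact 0 in such a table can be a failed estimate, so no fold is given for these rows. Of all 10303 rows with a symbol, a locus of at least 300 nt and 5 RPKM or more in the vehicle library, 2.33% were listed at 0 with MA4-022-1. Among the 750 such rows whose symbol has several rows at 1 locus, as PCA3 has, the share was 5.20%. In the other direction, 4.86% of 1029 rows of that kind with 5 RPKM or more in the MA4-022-1 library were listed at 0 with vehicle.

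**Figure D2:**
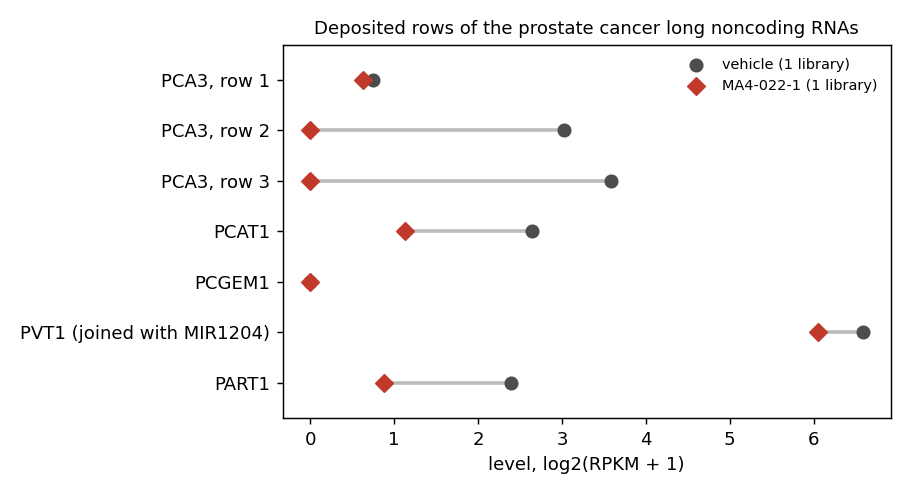
Level of each deposited row of the members in the vehicle library (circles) and the MA4-022-1 library (diamonds), as log2 of RPKM + 1, with 1 library per group and no error bars. PCA3 rows 2 and 3 go from 7.15 and 10.9 RPKM to a listed 0, PCA3 row 1 goes from 0.683 to 0.540 RPKM, and PCGEM1 sits at 0 in both libraries.

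All PCA3 rows were given the same locus on hg19, chr9:79226292-79521122, which also holds PRUNE2, a gene of the opposite strand. PRUNE2 stood at 60.9 RPKM with vehicle and 26.3 RPKM with MA4-022-1, which is 2.27-fold lower on the RPKM + 1 scale. Its RPKM ratio was 0.432, with a counting interval from 0.392 to 0.475 for a transcript of 1264 nt. The labels do not say whether strand was used in the counting, so reads of PCA3 and PRUNE2 may not have been kept apart, and the share of either in the other was not tested. Of the 6 expressed genes other than PCA3 within 500 kb of that locus, PRUNE2 was the 1 that was at least 2-fold lower. The nearest expressed genes outside it were RP11-214N16.2 on one side, at 2.06 against 0.703 RPKM, and VPS13A, a lipid transport protein, on the other, at 40.3 against 44.7 RPKM, and both lay within 2-fold.

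PCAT1, an intergenic transcript that is raised in a share of prostate tumours, stood at 5.25 RPKM with vehicle and 1.18 RPKM with MA4-022-1. Its log2 ratio was -1.52, or 2.86-fold lower on the RPKM + 1 scale, and 4.10% of expressed genes had a lower ratio. Without the pseudocount the vehicle RPKM was 4.44 times that of MA4-022-1, with a counting interval from 2.68 to 7.77. This assumes a transcript of 965 nt, the median of 32 annotated ones, and about 109 against 18 reads. With a pseudocount of 5 RPKM the log2 ratio was -0.73, inside 2-fold.

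PCAT1 had its locus, chr8:127859300-128033983 on hg19, to itself. Of the 4 expressed genes within 500 kb of it, 3 were at least 2-fold lower and 1 lay within 2-fold, where 9.95% of all expressed genes were lower. FAM84B, a protein-coding gene, stood at 65.6 RPKM with vehicle and 21.6 RPKM with MA4-022-1, 2.95-fold lower. RP11-103H7.5 and RP11-89K10.1, clone-named rows that share the FAM84B locus, stood at 11.5 against 4.08 and 25.4 against 23.2 RPKM. On the side towards MYC the nearest expressed row was RP11-382A18.1, at 2.92 against 0.147 RPKM. POU5F1B, a retrogene of that same locus, was under 1 RPKM, at 0.236 against 0.205.

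PVT1, whose transcripts are reported to steady the MYC protein and whose gene hosts several microRNAs, stood at 95.1 RPKM with vehicle and 65.5 RPKM with MA4-022-1. Its log2 ratio was -0.53, or 1.45-fold lower, and 22.9% of expressed genes had a lower ratio. The RPKM ratio was 0.688, with a counting interval from 0.610 to 0.776 for a transcript of 518 nt, the median of 25 annotated ones. The 2 libraries thus differed by more than counting error here, but by less than 2-fold. Because the row was joined with MIR1204, reads of that microRNA gene and of PVT1 cannot be told apart.

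MYC, the transcription factor whose gene lies 53.1 kb before the PVT1 locus, stood at 78.5 against 33.7 RPKM. Its RPKM ratio of 0.429 had a counting interval from 0.395 to 0.465 for a transcript of 1365 nt, which lies wholly below that of PVT1. The PVT1 locus, chr8:128806779-129113499 on hg19, also held rows for MIR1205 and MIR1207, at 183 against 167 and 184 against 195 RPKM. These microRNA genes, hosted by PVT1, were within 2-fold, as was TMEM75, at 1.19 against 2.22 RPKM. Reads of PVT1 and of the short microRNA genes inside it cannot be told apart. The RPKM of MIR1205 and MIR1207 is therefore not a measure of these microRNAs, nor a level to set beside that of PVT1. MIR1208 was listed at 0 in both libraries, and MIR1206 had no row. Further away on chromosome 8, GSDMC, a gasdermin, stood at 1.66 against 0.120 RPKM and FAM49B at 32.5 against 26.7 RPKM. The nearest expressed row beyond PVT1 was a copy of the small nuclear RNA 7SK, at 3.95 against 5.38 RPKM. Of the 8 expressed genes within 500 kb of PVT1, MYC and RP11-382A18.1 were at least 2-fold lower and 6 lay within 2-fold.

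PART1, the prostate androgen-regulated transcript, stood at 4.24 RPKM with vehicle and 0.845 RPKM with MA4-022-1. Its log2 ratio of -1.51 was close to that of PCAT1, and 4.17% of expressed genes had a lower ratio. The vehicle RPKM was 5.02 times that of MA4-022-1, with a counting interval from 3.57 to 7.14 for a transcript of 2569 nt and about 272 against 40 reads. With a pseudocount of 5 RPKM the log2 ratio was -0.66, again inside 2-fold.

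The deposited locus of PART1, chr5:58264865-59843484 on hg19, is that of PDE4D, a phosphodiesterase of cyclic AMP on the opposite strand. PDE4D was under 1 RPKM in both libraries, at 0.721 against 0.893, a 1.10-fold difference on the RPKM + 1 scale, and was not called. Of the 7 expressed genes within 500 kb, DEPDC1B was at least 2-fold lower and 6 lay within 2-fold. DEPDC1B, a gene linked to cell division, was the nearest on one side, at 18.0 against 5.29 RPKM, and CTD-2117L12.1 was the nearest on the other, at 2.29 against 3.17 RPKM. FKSG52, a row inside the PDE4D locus, went from 0.423 to 1.73 RPKM, within 2-fold on the RPKM + 1 scale.

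**Figure D3:**
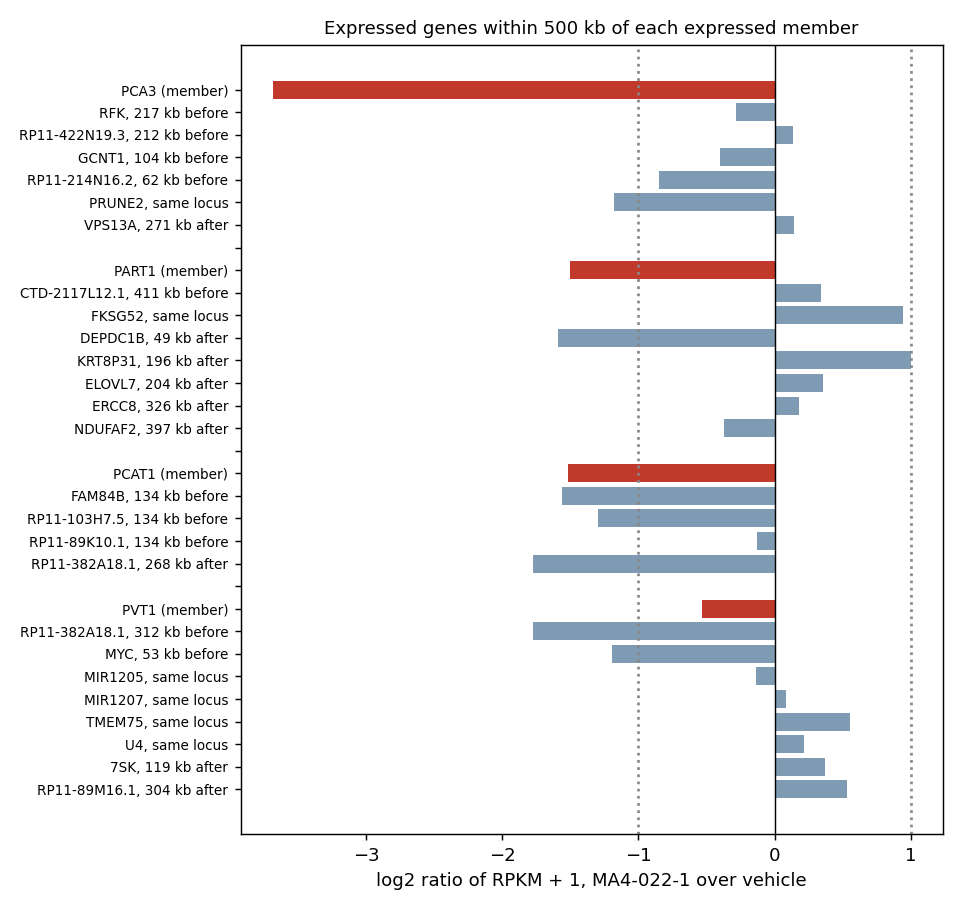
Bars of the log2 ratio of RPKM + 1, MA4-022-1 over vehicle, for each expressed member (red) and the expressed genes within 500 kb of its locus (blue), labelled with their distance and with 2-fold as dotted lines. Around PCAT1, 3 of 4 neighbours are beyond the lower dotted line, whereas PRUNE2 is the 1 neighbour of PCA3 and DEPDC1B the 1 neighbour of PART1 that is.

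Over all 4 expressed members, 24 expressed genes lay within 500 kb, counted once each. Of these, 6 passed 2-fold downwards, none upwards and 18 lay within it, with a median log2 ratio of -0.02. FAM84B and RP11-103H7.5, both among the 6, share 1 locus, so the calls are not independent. Of all expressed genes, 9.95% passed 2-fold downwards and 8.36% upwards. KRT8P31, a keratin pseudogene near PART1, lay just inside at 0.397 against 1.79 RPKM and passed 2-fold upwards when the median of genes averaging at least 1 RPKM, or that of housekeeping controls, was set to 0. No gene of the 5 within 500 kb of PCGEM1 was expressed. PCGEM1 had 2 annotated transcripts with a median of 1174.5 nt, on which 3 reads would have given 0.114 RPKM with vehicle and 0.155 RPKM with MA4-022-1. Its locus on hg19 is chr2:193614571-193641625. Of all 54302 rows with a symbol and a locus of at least 300 nt, 44.9% were listed at 0 in both libraries, as PCGEM1 was. Of the listed genes further out on chromosome 2, TMEFF2, a membrane protein, stood at 0.795 against 0.167 RPKM, and NABP1 and SLC39A10 lay within 2-fold at 21.5 against 31.0 and 24.0 against 20.9 RPKM.

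Other long noncoding RNAs linked to prostate or other cancers are given for comparison. Of 51 such genes listed, 24 had a row, 9 of those were under 1 RPKM and 15 were expressed. The 27 without a row include SCHLAP1, DRAIC, ARLNC1 and every PCAT gene of this list, so the 15 do not stand for the whole list. None of the 15 passed 2-fold downwards, 4 passed it upwards and 11 lay within it, with a median log2 ratio of 0.42. Of all expressed long noncoding genes, 10.7% were lower and 7.71% higher. NEAT1, the scaffold of paraspeckles, stood at 91.8 RPKM with vehicle and 641 RPKM with MA4-022-1, and MALAT1, a nuclear speckle RNA, at 985 against 3659 RPKM. KLKP1, a transcribed pseudogene of the kallikrein cluster, stood at 4.56 against 18.7 RPKM. SNHG1 was the fourth, at 858 against 2142 RPKM, in a row joined with the small nucleolar RNAs of its introns. The lowest ratios in the list were those of PRRT3-AS1, at 9.01 against 4.38 RPKM, and LOXL1-AS1, at 2.59 against 1.11 RPKM, both chosen after their values were seen and within 2-fold.

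**Figure D4:**
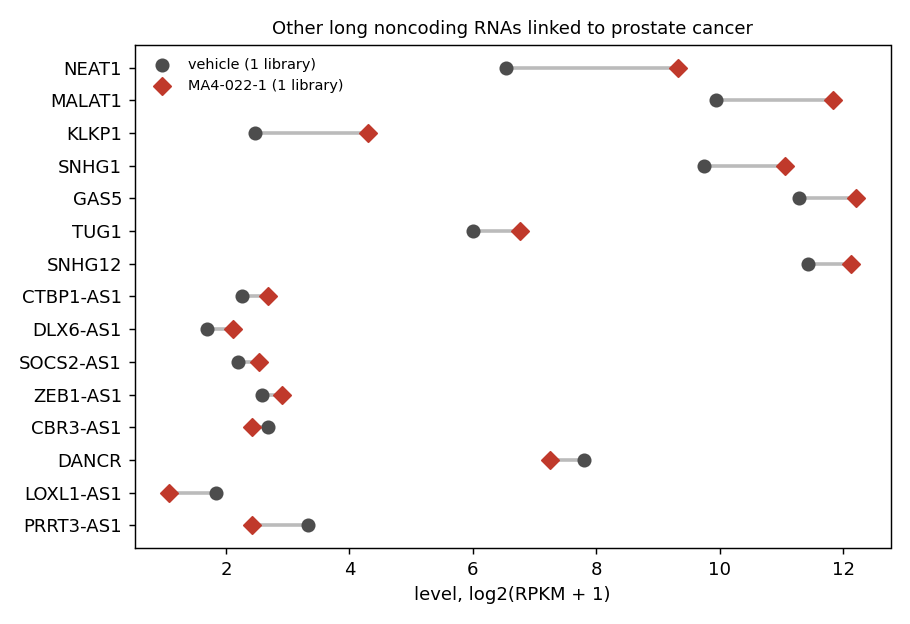
Levels of the 15 expressed long noncoding RNAs of the wider list in the vehicle library (circles) and the MA4-022-1 library (diamonds), as log2 of RPKM + 1, ordered by their difference, with 1 library per group. NEAT1, MALAT1, KLKP1 and SNHG1 at the top are at least 2-fold higher with MA4-022-1, and no gene is at least 2-fold lower.

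Several members are known to answer to androgen, so some genes of the androgen response are given beside them. FOXA1, a pioneer factor of prostate chromatin, stood at 89.7 RPKM with vehicle and 127 RPKM with MA4-022-1 over 4 rows. KLK2 and KLK3, the latter encoding PSA, shared 1 row at 1528 against 1675 RPKM. TMPRSS2, an androgen-induced protease gene, stood at 251 against 310 RPKM. HOXB13, a prostate homeobox factor, stood at 54.8 against 31.7 and FKBP5 at 72.7 against 48.6 RPKM. All 5 of these rows or sums lay within 2-fold.

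The expressed genes closest to each member in both libraries were picked by distance in log2 of RPKM + 1 among 13419 genes with 1 row. With only 2 libraries this measures level and difference, and many genes lie near any such point. LINC00161, ZNF367 and GPC5-AS1 were nearest to PCA3, at distances from 0.12 to 0.28, and LINC00161 stood at 17.2 against 0.526 RPKM. TRIM2, MT1F and COCH were nearest to PCAT1, at 0.07 to 0.09, and ERCC6L, CA3 and ADORA2B were nearest to PART1, at 0.03 to 0.09. AC026956.1, MRPS11 and USP22 were nearest to PVT1, at 0.01 to 0.04.

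The label of the cells was checked on marker genes. Of the luminal prostate markers, the keratin KRT18 stood at 113 against 73.6 RPKM. FOLH1, which encodes the prostate membrane antigen, stood at 615 against 488 RPKM, and STEAP1, a prostate surface protein, at 120.3 against 97.8 RPKM. None of 4 basal markers and none of 3 endothelial markers reached 1 RPKM. Of the immune markers the row of CD68 alone did, at 10653 against 11697 RPKM. PTPRC was at 0.0209 against 0.192 RPKM and CD3E at 0.0339 against 0.0677 RPKM. The CD68 row stood far above the housekeeping control GAPDH, at 1311 against 1227 RPKM, and above the row of KLK2 and KLK3. Which reads the CD68 row holds was not tested, so it is not taken as a level of CD68 mRNA. Of 4 fibroblast markers COL1A1 alone did, at 1.19 against 5.03 RPKM, and LUM was listed at 0 in both. SYP and ENO2 were the 2 of 4 neuroendocrine markers above 1 RPKM, at 1.20 against 3.17 and 18.7 against 30.5 RPKM. The part of these differences in the member values was not tested. From the steps of low values, the libraries were scaled to 27131556 reads for vehicle and 19917776 for MA4-022-1, where 1 read on 2000 nt was worth 0.0205 and 0.0279 RPKM.

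The member ratios under other settings kept their sign. With a pseudocount from 0.1 to 5 RPKM, the PCA3 ratio ran from -4.88 to -2.10. With the median of 22 housekeeping controls set to 0, a shift of 0.18, PCA3 stood at -3.51, PCAT1 at -1.34, PART1 at -1.33 and PVT1 at -0.36. Of the settings tried, the restriction to rows above 0 in both libraries was the 1 that brought the PCA3 ratio inside 2-fold. There PCA3 was under 1 RPKM in both libraries and was not called.

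**Figure D5:**
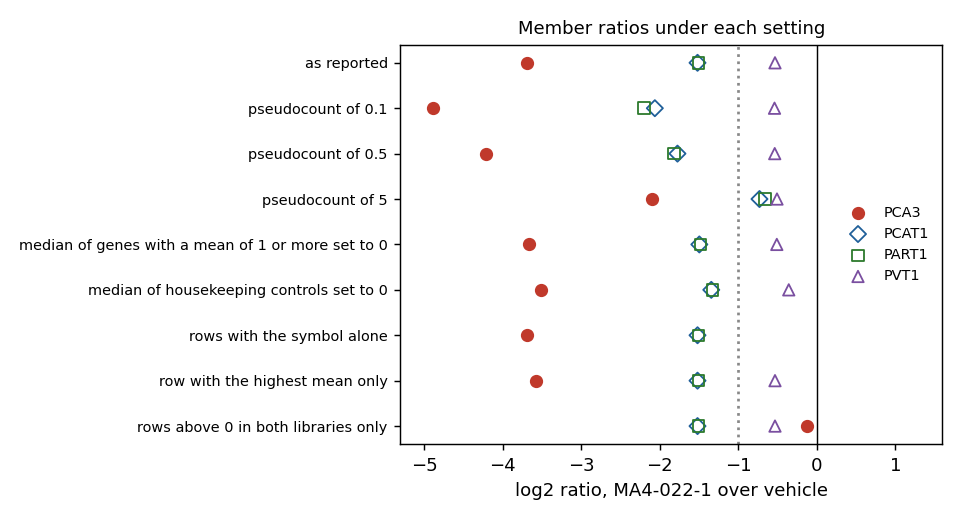
Log2 ratio, MA4-022-1 over vehicle, of the 4 expressed members under each pseudocount, scaling and choice of rows, with 2-fold lower as a dotted line. PCA3 lies beyond the line except over rows above 0 in both libraries, at -0.13, and PCAT1 and PART1 cross it with a pseudocount of 5, at -0.73 and -0.66.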

How the data were processed

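Total RNA of 2 samples, 1 per group, was sequenced as single reads of 50 bp after ribosomal RNA depletion and ScriptSeq library construction, per the labels' protocols. The authors deposited RPKM per gene row with a locus and a symbol, per the file headers. TopHat2 2.0.13, Cufflinks 2.2.1 and hg19 are named, per the submitters' processing notes, while annotation and strand setting are not given in the sources used here. Each table held 62271 rows, of which 2751 had no symbol and were left out, and 1635 joined several symbols and kept their joint name. Rows of 1 symbol were summed. Deposited locus starts count from 0, checked on pseudogenes alone at their locus, where the annotated length equalled end minus start in 1603 of 2295 and that plus 1 in 8, and 1 was added for printing.

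The members and lists were chosen with earlier results of these data known. The rule for named genes took all members and their rows, the expressed genes of the locus and androgen response lists, the 6 largest ratios each way past 2-fold in the wider list, the nearest expressed neighbours and the 3 closest genes. A few genes that it names are not reported.

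Depth came from low values of pseudogenes of 600 to 6000 nt. Of 255 values up to 5 reads in the vehicle library, 87.8% lay within 2% of a whole read, and of 195 with MA4-022-1, 87.2%. Intervals use these totals and transcript lengths of GENCODE release 29, whose coordinates were not used. PCR duplicates and spread between cultures are not in them. GENCODE types matched 11243 expressed symbols. The steps were tested on simulated data. Alternatives were pseudocounts, filters, scalings, thresholds, windows and choices of rows. Python 3.11.15, numpy 2.4.6, pandas 2.3.3, scipy 1.17.1 and matplotlib 3.10.9 were used.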

Additional observations from a re-analysis of the deposited data

How the results depend on the processing

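No paired analysis was possible because each group held 1 library, and leaving out a replicate was not possible for the same reason. No ratio of a member changed sign. PCA3 stood at -4.88 with a pseudocount of 0.1, -2.10 with 5 and -0.13 over rows above 0 in both libraries, a choice made after seeing the data. PCAT1 stood at -0.73 with a pseudocount of 5, PART1 at -2.20 with 0.1 and -0.66 with 5, and PVT1 at -0.36 with housekeeping controls set to 0. With a pseudocount of 5, or a threshold of 3-fold, 1 member was lower and 3 lay within the threshold. Without a filter on low values 2 lay within it, since PCGEM1 then entered, and 0 did where joined rows were left out, since PVT1 then dropped.

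Of all expressed genes, 1570 were lower and 1319 higher, so 45.7% of calls were higher. With housekeeping controls set to 0 that share was 62.9%. A pseudocount of 0.1 gave 2084 higher, one of 5 gave 742 lower and 558 higher, a filter of 5 RPKM 867 higher, a threshold of 1.5-fold 3292 lower and 3067 higher, and one of 3-fold 597 and 470. Among the other long noncoding RNAs, 2 were lower with a pseudocount of 0.1, and 2 were lower and 7 higher at 1.5-fold. Of genes within 500 kb, 3 were higher with a pseudocount of 0.1, 2 with 0.5, 1 with the median of genes averaging at least 1 RPKM set to 0, 2 with housekeeping controls set to 0 and 2 at 1.5-fold. At 3-fold 2 were lower, within 100 kb 3 were lower, and within 1000 kb 3 were higher. Loci of 300 nt or more alone, lists without joined rows and all genes over rows above 0 in both libraries, also chosen after seeing the data, are among the other 101 values, which moved by less than the counting interval or, for counts, by at most 1.5 times. Depth limits the lowest values, since 3 reads on 2000 nt are worth 0.0615 RPKM with vehicle and 0.0837 with MA4-022-1.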
